A study of Homo sapiens with 18 samples.

Results

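GR occupancy in cells depleted of both Hic-5 and CHD9 (siCHD9/siHic5) was compared with that in control cells (siNS/siNS), to ask whether depletion of CHD9 on top of Hic-5 gives back the control set of GR binding regions (GBR) or another one. A GBR was assigned to the siNS/siNS list only (884 GBR), to the siCHD9/siHic5 list only (754 GBR) or to both lists (1698 GBR counted on siNS/siNS and 1697 on siCHD9/siHic5) by an overlap of at least 1 bp. These are 5033 of the 20642 GBR in the 6 lists of the series, and 4 of its 18 libraries are the GR ChIP-seq libraries behind them. U2OS-GRα is an established human osteosarcoma cell line in which GRα is expressed from a stable transgene. Cells were transfected for 48 h with siRNA against CHD9 and Hic-5 in equal amounts, or with nonspecific siRNA of the same total mass, and all groups then received 100 nM dexamethasone (dex) for 1 h. There was no group without dex among these libraries, and 2 biological replicates per group, done on different days, had been pooled by the authors into 1 list, with 1 input library per group. Each list is therefore a value without replicate spread, read depth cannot be read from it, and all intervals below are 95% intervals that cover counting error only. The lists hold genomic regions and no expression values, so neither the loss of Hic-5 and CHD9 nor markers of the cell line could be checked in them.

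GR is a ligand-activated transcription factor. On binding dex it enters the nucleus and occupies the GR response element (GRE), a palindrome of 2 half-sites spaced by 3 bases, or associates with DNA through other factors such as AP-1, the Fos and Jun dimers. Hic-5, the product of TGFB1I1, is a LIM domain coregulator of steroid receptors, and CHD9 is an ATP-dependent chromatin remodeler of the CHD family. In bone cells glucocorticoids act on genes of stress, metabolism, inflammation and differentiation.

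Sequences at the summits are shown for the strongest GBR of each class, because the classes differed most in the motifs found there. Each line gives 200 bases of the GRCh38 plus strand centered on a summit, with GRE matches (GNACA and TGTNC on either side of any 3 bases) and AP-1 matches (TGACTCA or its complement TGAGTCA) in capitals. The GBR of the siNS/siNS list only come first, named by the gene with the nearest TSS, and hold GRE matches at SPATA31C2 and CDH26 and no match at KCNG1. The GBR near C9orf50 and SLC6A6, next in strength, held neither match and are not shown. With 1 mismatch allowed at the fixed bases of the GRE, those near C9orf50 and SLC6A6 held one and that at KCNG1 did not.
SPATA31C2, chr9:88076872-88077071: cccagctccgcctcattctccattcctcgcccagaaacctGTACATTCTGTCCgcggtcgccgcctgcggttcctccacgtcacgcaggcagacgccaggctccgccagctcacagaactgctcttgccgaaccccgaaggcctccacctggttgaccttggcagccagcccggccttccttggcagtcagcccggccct
CDH26, chr20:60078751-60078950: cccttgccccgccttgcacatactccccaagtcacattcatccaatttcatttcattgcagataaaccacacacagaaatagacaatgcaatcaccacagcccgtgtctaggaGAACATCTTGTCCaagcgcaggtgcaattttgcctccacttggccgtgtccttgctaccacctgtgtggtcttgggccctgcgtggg
KCNG1, chr20:51023891-51024090: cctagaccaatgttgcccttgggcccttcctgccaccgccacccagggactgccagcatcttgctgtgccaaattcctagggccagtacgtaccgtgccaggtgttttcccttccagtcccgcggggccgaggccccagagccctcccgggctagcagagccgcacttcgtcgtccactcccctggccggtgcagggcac

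The 3 strongest GBR of the siCHD9/siHic5 list only each held an AP-1 match and no GRE match.
C6orf118, chr6:165178155-165178354: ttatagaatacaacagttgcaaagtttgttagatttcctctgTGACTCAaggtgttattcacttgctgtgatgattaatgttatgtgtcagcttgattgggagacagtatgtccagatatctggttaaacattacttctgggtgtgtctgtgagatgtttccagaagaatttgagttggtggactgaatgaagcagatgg
ASB7, chr15:100727162-100727361: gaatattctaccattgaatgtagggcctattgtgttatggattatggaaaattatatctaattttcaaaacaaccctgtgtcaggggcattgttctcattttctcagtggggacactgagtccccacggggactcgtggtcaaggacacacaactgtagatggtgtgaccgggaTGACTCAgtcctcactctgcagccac
MAF, chr16:79182702-79182901: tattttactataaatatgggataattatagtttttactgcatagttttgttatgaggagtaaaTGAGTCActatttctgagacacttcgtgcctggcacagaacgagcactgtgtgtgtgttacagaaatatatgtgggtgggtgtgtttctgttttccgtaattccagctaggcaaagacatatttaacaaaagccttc

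Of the 3 GBR common to both lists with the best mean rank, one in an FKBP5 intron held a GRE and an AP-1 match. One near OTOS held a GRE match. The third, at the UTR of NFKBIA, held neither exact match, but a GRE with 1 mismatch, and is not shown.
FKBP5 intron, chr6:35728031-35728230: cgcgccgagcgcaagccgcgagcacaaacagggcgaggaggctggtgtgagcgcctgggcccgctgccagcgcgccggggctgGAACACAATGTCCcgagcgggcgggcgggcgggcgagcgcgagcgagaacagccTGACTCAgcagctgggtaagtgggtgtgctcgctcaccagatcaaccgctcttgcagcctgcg
OTOS, chr2:240251425-240251624: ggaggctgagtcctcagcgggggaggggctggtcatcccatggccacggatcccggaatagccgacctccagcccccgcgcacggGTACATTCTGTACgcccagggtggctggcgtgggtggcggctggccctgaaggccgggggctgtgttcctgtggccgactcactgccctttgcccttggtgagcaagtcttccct

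The siNS/siNS list held 2582 GBR and the siCHD9/siHic5 list 2451. Of the siNS/siNS GBR, 1698 (65.8%, 95% Wilson interval 63.9 to 67.6%) overlapped a siCHD9/siHic5 GBR and 34.2% did not. Of the siCHD9/siHic5 GBR, 1697 (69.2%, 67.4 to 71.0%) overlapped a siNS/siNS GBR and 30.8% did not. Over the 3336 GBR of either list, 49.1% were called in 1 list only. The lists were thus alike in size, but not made of the same regions. They were also alike in width, with medians of 440 bp and 439 bp. The median −log10 p-value of the peak over input was 21.2 in siNS/siNS and 20.7 in siCHD9/siHic5, and the lowest −log10 q-value was 8.88 and 7.74, respectively. These values depend on read depth, so they are given as a description of each list and not as a difference in occupancy.

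Membership was rarely a matter of borders. The smallest overlap counted was 217 bp, and summits of overlapping GBR lay a median of 15.5 bp apart, with 1512 of the 1698 pairs (89.0%) within 50 bp. Among the GBR of 1 list only, the nearest GBR of the other list lay no closer than 124 bp for siNS/siNS and 213 bp for siCHD9/siHic5. Within 1 kb there were 27 and 26 such GBR, respectively. Within 10 kb of a GBR of the other list lay 13.5% (11.4 to 15.9%) of the GBR called only in siNS/siNS and 12.2% (10.1 to 14.7%) of those called only in siCHD9/siHic5.

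The strongest GBR were common to both lists. When each list was divided by −log10 p-value into 10 deciles, decile 1 being the strongest, 258 of 259 siNS/siNS GBR of decile 1 (99.6%, 97.8 to 99.9%) were also called in siCHD9/siHic5, and of the siCHD9/siHic5 GBR of decile 1 245 of 246 (99.6%, 97.7 to 99.9%) were also called in siNS/siNS. The share fell with strength, to 62.4% (56.4 to 68.1%) in decile 5 of siNS/siNS and 75.1% (69.3 to 80.1%) in that of siCHD9/siHic5, and to 40.7% (34.9 to 46.8%) and 40.4% (34.5 to 46.7%) in decile 10. The GBR of 1 list only were accordingly weak in their own list. Their median −log10 p-value was 16.3 (quartiles 14.3 and 20.3) in siNS/siNS, where shared GBR had 27.4 (18.1 and 43.9), and 15.0 (13.0 and 19.1) in siCHD9/siHic5, where shared GBR had 26.1 (17.3 and 45.0). These values come from the same lists that defined the classes and describe them without a test. Without separate replicates it cannot be told how much replicate lists of the same cells would differ.

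**Figure D1:**
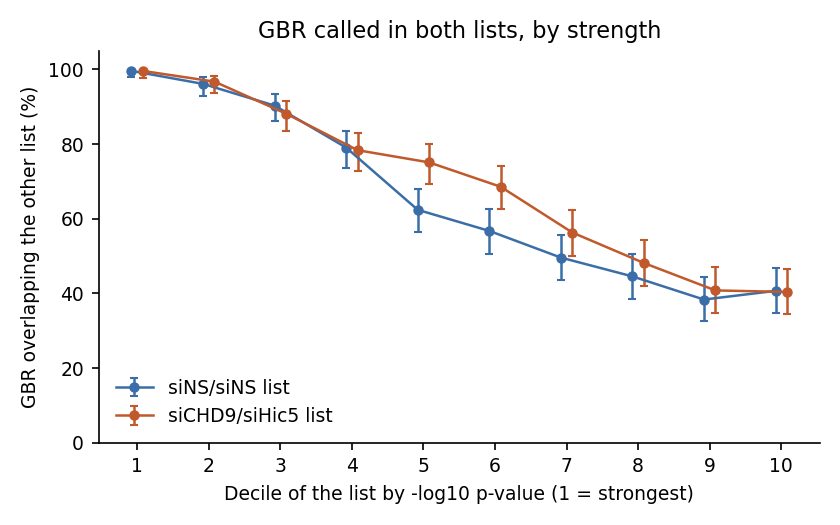
Share of GBR that overlapped the other list (vertical axis, %) by decile of the list (horizontal axis, 1 is the strongest decile by −log10 p-value), for the siNS/siNS and siCHD9/siHic5 lists, with bars for the 95% Wilson intervals. Both lines start at 99.6% and reach 40.7% and 40.4% in decile 10.

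Even among shared GBR the order differed. Spearman's rho between the 2 ranks was 0.63 over the 1698 pairs, whose values come from 1 pooled list each and all passed both thresholds. In 678 pairs (39.9%) the 2 ranks, each as a percentile of its list, lay within 10 points of each other, and in 382 pairs (22.5%) they were over 30 points apart. The 100 strongest GBR of siNS/siNS included 75 that were among the 100 strongest of siCHD9/siHic5, and of the 1000 strongest, 681 were among the 1000 strongest of siCHD9/siHic5. All of the 100 strongest of either list, and 490 (98.0%) of the 500 strongest, were called somewhere in the other list.

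**Figure D2:**
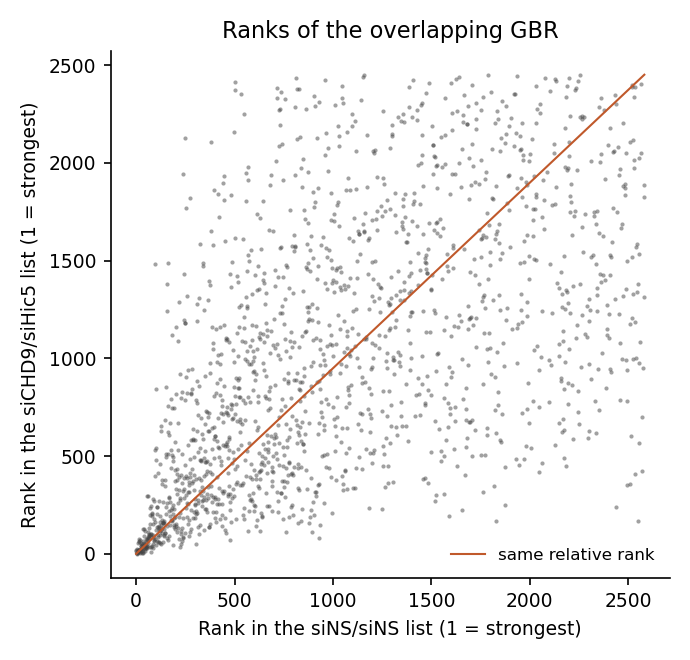
Rank of each of the 1698 overlapping GBR pairs in the siNS/siNS list (horizontal axis) and in the siCHD9/siHic5 list (vertical axis), where 1 is the highest −log10 p-value and the line marks the same relative rank. Points lie close to the line at the strongest ranks and are widely scattered beyond them.

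The well-known GR target genes FKBP5 and NFKBIA lay near GBR that led both lists. The GBR in the FKBP5 intron (chr6:35727366-35728538) ranked 5 in siNS/siNS and 1 in siCHD9/siHic5. FKBP5 encodes a cochaperone that feeds back on GR. The GBR near OTOS (chr2:240251007-240251983), 111 kb upstream of its TSS and intergenic, ranked 4 and 3. The GBR at the UTR of NFKBIA (chr14:35403601-35404794), which encodes the NF-κB inhibitor IκBα, ranked 3 and 4. All 3 GBR were called in all 6 lists of the series.

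In a list of 44 genes that respond to glucocorticoids in many tissues, 27 had a GBR of either list within 50 kb of the TSS, and all 27 had a GBR common to both lists. The same shares over all genes were not determined, so these gene counts only describe the list. Near these genes 54 GBR were shared, 5 of the 59 siNS/siNS GBR (8.47%, 3.67 to 18.4%) were in that list only, against 34.2% of all siNS/siNS GBR, and 6 of the 60 siCHD9/siHic5 GBR (10.0%, 4.66 to 20.1%) were in that list only, against 30.8% of all. The GBR near these genes were also strong, with a median rank of 462 among the 2582 of siNS/siNS and 25 of the 59 in decile 1, so their lower share is not separated from strength. At DDIT4, which encodes an inhibitor of mTORC1 signaling, 6 GBR were called and all were shared, as were all 6 at FKBP5 and all 3 at the metallothionein gene MT2A. The MT2A GBR 0.235 kb upstream of the TSS ranked 10 in both lists, and the one 1.24 kb upstream ranked 20 in siNS/siNS and 9 in siCHD9/siHic5. The shared GBR of PER1, a repressor of the circadian clock, ranked 30 and 29.

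A few GBR near these genes were called in 1 list only. Those called only in siNS/siNS lay at NFKBIA, ERRFI1, BIRC3, LIF and GADD45B. The strongest of these was chr14:35390740-35391358, 13.7 kb downstream of the NFKBIA TSS, with rank 494 and a −log10 p-value of 41.2. The GBR called only in siCHD9/siHic5 lay at PER1, DUSP5, BCL2L1 and GADD45B, and 2 lay at DUSP1, which encodes a MAP kinase phosphatase. The strongest of them was chr5:172775597-172775980, 4.58 kb upstream of the DUSP1 TSS, with rank 1027 and a −log10 p-value of 23.7. At GADD45B, a stress response gene, 3 GBR were shared and each list added 1 of its own. Among 18 osteoblast and matrix genes 3 had any GBR of these lists within 50 kb. The share over all genes was not determined, so this count is not read as low or high. MSX2, a homeobox gene of bone development, had a shared GBR with ranks of 79 and 88 and another in siNS/siNS only, COL1A1 (type I collagen) had 1 in siNS/siNS only, and DKK1, a WNT antagonist, had 1 in siCHD9/siHic5 only. Of the 44 glucocorticoid-responsive genes, IGFBP1 had a shared GBR with ranks of 392 and 1079 and SCNN1A one with ranks of 21 and 23. Of 3 example genes outside both gene lists, SPINK13 had a shared GBR (ranks 294 and 328), RP1L1 had 1 GBR in siCHD9/siHic5 only, and ANO2 had none of either list within 50 kb.

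The 5 strongest GBR of siNS/siNS only ranked between 172 and 333. The strongest, chr9:88076557-88077185, was intergenic, 61.5 kb from the TSS of SPATA31C2, and had a −log10 p-value of 75.9. The next was intergenic near CDH26, a cadherin gene (chr20:60078524-60079125, rank 284), and the one after it lay 0.884 kb upstream of the TSS of KCNG1, which encodes a modifier subunit of voltage-gated potassium channels (chr20:51023707-51024213, rank 295). The others lay near C9orf50 (rank 322) and near SLC6A6, the taurine transporter gene (rank 333). The GBR near CDH26 was called in siHic5/siNS and in none of the 3 other lists of the series, whereas the other 4 were called in siHic5/siNS, siBRM/siHic5 and siBRM/siNS, and 3 of these 4 in siCHD9/siNS (not the one near C9orf50).

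The 5 strongest GBR of siCHD9/siHic5 only ranked between 231 and 366. The strongest, chr6:165178008-165178522, was intergenic near C6orf118 and had a −log10 p-value of 68.3. It was followed by intergenic GBR near ASB7 (chr15:100726840-100728116, rank 325), a GBR in a WWOX intron whose nearest TSS is that of the transcription factor gene MAF (chr16:79182582-79183041, rank 342), and GBR near TFAP2A, which encodes a transcription factor (rank 364), and SYT7, which encodes a calcium sensor of vesicle fusion (rank 366). All 5 were called in siHic5/siNS and in siBRM/siHic5, 4 of the 5 in siCHD9/siNS (not the one near MAF), and 0 of 5 in siBRM/siNS. Only 40 of the 1278 siBRM/siNS GBR lay outside siNS/siNS, so few calls there were possible. In the 200 bases at the summit, 4 of these 5 held an AP-1 match (not TFAP2A, which held a GRE match), and 0 of the 5 strongest of siNS/siNS only did. Of the latter, those near SPATA31C2 and CDH26 held a GRE match and the others held neither exact match. The central 75 bases occur once in the reference at the 5 strongest GBR of each list only. The same held for the GBR named by mean rank or by rank change. A read of just these bases thus had 1 exact place, but the rest of each GBR and the other GBR named here were not checked.

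Calls in the other 4 lists showed how the classes fit in with the other depletions. These lists played no part in the assignment, but they overlap siNS/siNS to unlike degrees. Most GBR of every class were called in the larger list of cells depleted of Hic-5 alone (siHic5/siNS, 9533 GBR), namely 91.2% (89.1 to 92.9%) of the GBR called only in siNS/siNS, 89.4% (87.0 to 91.4%) of those called only in siCHD9/siHic5, and 99.8% of the shared GBR. The difference of siNS/siNS only minus siCHD9/siHic5 only was 1.79 percentage points (Newcombe interval −1.08 to 4.73). Their strength in that list was also alike, with median −log10 p-values of 34.0 and 32.7, against 71.5 for shared GBR. The list made after loss of BRM together with Hic-5 (siBRM/siHic5, 3383 GBR) held 60.4% of siNS/siNS only and 54.4% of siCHD9/siHic5 only, a difference of 6.03 points (1.23 to 10.8). Within the 4 ranges of −log10 p-value examined this difference was 1.85 to 4.39 points, and each interval included 0.

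In the lists of the 2 depletions made in the presence of Hic-5, the shares of the classes differed in opposite directions. GBR called only in siCHD9/siHic5 lie outside siNS/siNS by definition. Of the siBRM/siNS GBR only 40 of 1278 lay outside siNS/siNS, and of the siCHD9/siNS GBR 158 of 1415. The number of calls possible for this class was thus limited in advance, most of all in siBRM/siNS, whose low shares below largely follow from it. The list of cells depleted of CHD9 alone (siCHD9/siNS, 1415 GBR) held 135 (17.9%, 15.3 to 20.8%) of the GBR called only in siCHD9/siHic5 and 65 (7.35%, 5.81 to 9.26%) of those called only in siNS/siNS, a difference of −10.6 points (−13.8 to −7.35). The list of cells depleted of BRM alone (siBRM/siNS, 1278 GBR) held 18 (2.39%, 1.52 to 3.74%) of the GBR called only in siCHD9/siHic5 and 174 (19.7%, 17.2 to 22.4%) of those called only in siNS/siNS, a difference of 17.3 points (14.5 to 20.2). Shared GBR were called in 70.1% and 62.4% of cases, respectively. Both differences kept their sign in all 4 ranges of −log10 p-value examined and were larger among the stronger GBR. Among GBR with a −log10 p-value of 30 or more in their own list, 34 of 43 (79.1%) called only in siCHD9/siHic5 and 40.5% of 37 called only in siNS/siNS were in the siCHD9/siNS list, and in the siBRM/siNS list the values were 9.30% and 81.1%. Among the weakest, with a −log10 p-value below 15, the differences were −4.94 points (−8.35 to −1.42) for siCHD9/siNS and 3.60 points (1.11 to 6.80) for siBRM/siNS.

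**Figure D3:**
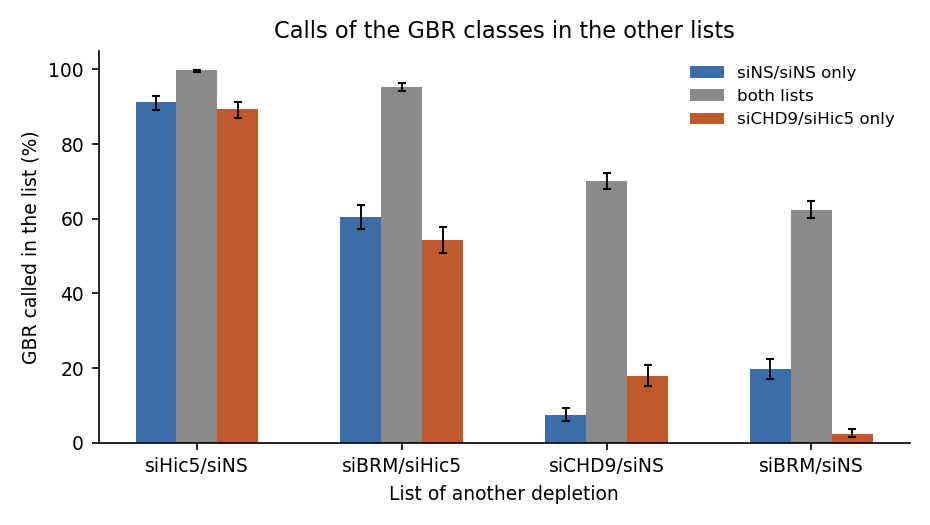
Share of GBR called in the list of another depletion (vertical axis, %), for GBR of siNS/siNS only (884), of both lists (1698) and of siCHD9/siHic5 only (754), with 95% Wilson intervals. The outer bars are near each other for siHic5/siNS, whereas in siCHD9/siNS the siCHD9/siHic5 only bar is higher (17.9% against 7.35%) and in siBRM/siNS it is lower (2.39% against 19.7%). Only 40 of the 1278 siBRM/siNS GBR lie outside siNS/siNS, which limits the siCHD9/siHic5 only bar there.

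Read from the siHic5/siNS list, the siCHD9/siHic5 list kept about as many of its GBR as the siNS/siNS list, and largely the same ones among the strongest. Of the 954 GBR in decile 1 of siHic5/siNS, 904 were called in siNS/siNS, 896 in siCHD9/siHic5 and 858 in both. Over all 9533, 1676 were called in both, 798 in siNS/siNS only, 667 in siCHD9/siHic5 only and 6392 (67.1%) in neither. In decile 4 the numbers were 72 in both, 140 in siNS/siNS only and 120 in siCHD9/siHic5 only, so that there the GBR called in 1 list outnumbered those called in both.

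Motif content separated the classes. AP-1 matches in the 200 bases at the summit were found, with shared GBR counted on the siNS/siNS list, at 283 of 754 GBR called only in siCHD9/siHic5 (37.5%, 34.1 to 41.0%), at 21.97% (20.1 to 24.0%) of shared GBR and at 84 of 884 GBR called only in siNS/siNS (9.50%, 7.74 to 11.6%). In windows 5 kb to either side of the summits they were found at 3.05%, 3.21% and 4.69%. The difference of siNS/siNS only minus siCHD9/siHic5 only was −28.0 percentage points (−32.0 to −24.0). GRE matches went the other way, at 13.1% (10.9 to 15.7%) of siCHD9/siHic5 only, 29.3% (27.2 to 31.5%) of shared GBR and 24.5% (21.8 to 27.5%) of siNS/siNS only, against 0.398%, 0.383% and 0.509% to either side, a difference of 11.4 points (7.65 to 15.1). With 1 mismatch allowed at the fixed bases of the GRE the shares were 54.4%, 76.4% and 68.3%, against 6.17%, 6.39% and 7.07% to either side. The sequences at C6orf118, ASB7 and MAF above are examples of an AP-1 match without an exact GRE match, which 33.4% of siCHD9/siHic5 only and 8.26% of siNS/siNS only had. Those at SPATA31C2 and CDH26 are examples of a GRE match without an AP-1 match, which 9.02% of siCHD9/siHic5 only and 23.3% of siNS/siNS only had.

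Motifs of other families differed less. The core of ETS sites (AGGAAGT or CGGAAGT, on both strands) was found at 9.95% (8.01 to 12.3%) of siCHD9/siHic5 only, 8.36% of shared GBR and 4.64% (3.44 to 6.23%) of siNS/siNS only, against 5.04%, 4.36% and 4.52% to either side, so that the siNS/siNS only share was at the level of its flanks. The difference was −5.31 points (−7.94 to −2.80). For the RUNX sequence TGTGGTT, bound by factors that include RUNX2 of the osteoblast lineage, the difference was 0.49 points (−2.15 to 3.07), and for the TEAD sequence GGAATGT it was 2.76 points (−0.31 to 5.78). No pattern searched for contains another, although matches can share bases, and a match is a sequence and not a measured binding event. Neither a GRE nor an AP-1 match was found at 53.4% of siCHD9/siHic5 only, 52.9% of shared GBR and 67.2% of siNS/siNS only.

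**Figure D4:**
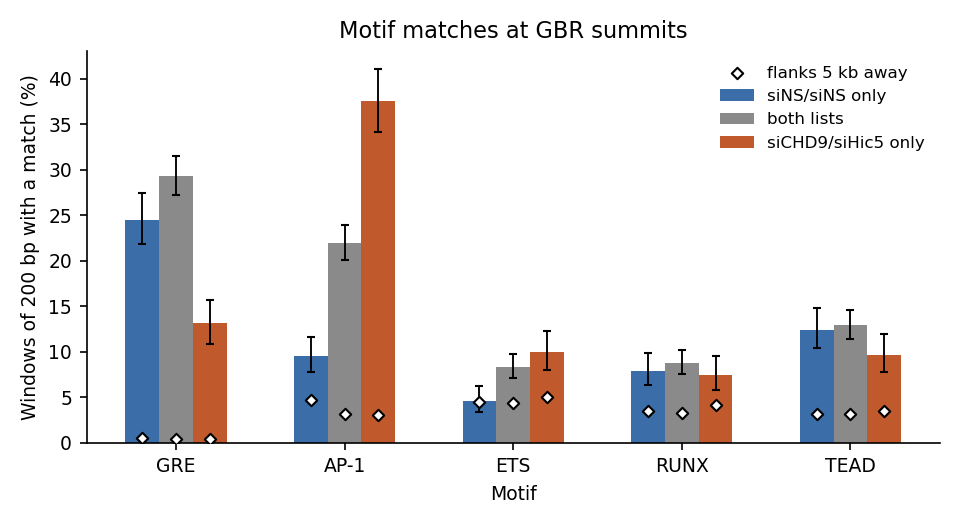
Share of 200-bp windows at GBR summits with at least 1 match to each motif (vertical axis, %), for GBR of siNS/siNS only, of both lists and of siCHD9/siHic5 only, with 95% Wilson intervals. Diamonds give the share in windows 5 kb to either side. AP-1 rises from 9.50% to 37.5% across the classes, whereas GRE is lowest at siCHD9/siHic5 only (13.1%).

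GRE matches lay close to the summits in every class. Their middle was a median of 16 bp from the summit at siNS/siNS only, 12 bp at shared GBR and 10 bp at siCHD9/siHic5 only, and 60.4%, 67.5% and 76.8% of them, respectively, lay within 20 bp. AP-1 matches lay farther out, at medians of 34.5, 40 and 42 bp.

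The AP-1 difference was present in strong and weak GBR alike. Within the siHic5/siNS list all windows can be centered on the summits of the same list, and its GBR can be grouped by their strength there, which was not used in the assignment. In deciles 1 and 2 AP-1 matches were found at 41.6% (34.3 to 49.2%) of 166 GBR also called in siCHD9/siHic5 only and 8.13% (5.32 to 12.2%) of 246 also called in siNS/siNS only, and in deciles 7 to 10 at 37.3% (28.5 to 46.9%) of 102 and 8.25% (4.24 to 15.4%) of 97. The GBR called in neither list lay between these values, at 16.7% in deciles 1 and 2 and 18.4% in deciles 7 to 10. GRE matches were found at 19.9% and 24.0% in deciles 1 and 2, a difference of siCHD9/siHic5 only minus siNS/siNS only of −4.10 points (−11.9 to 4.22) that was within counting error, and at 12.5% and 26.9% in deciles 3 and 4, a difference of −14.4 points (−20.7 to −7.98).

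For AP-1, shared GBR showed the same order without any GBR being gained or lost. Of the 189 pairs that ranked over 30 percentile points higher in siCHD9/siHic5, 38.6% (32.0 to 45.7%) held an AP-1 match. The share was 28.6% at 280 pairs 10 to 30 points higher, 24.3% at 678 pairs within 10 points, 12.3% at 358 pairs 10 to 30 points lower, and 5.70% (3.21 to 9.92%) at the 193 pairs over 30 points lower. GRE matches went the other way, but not at every step. From the pairs that ranked over 30 points higher to those over 30 points lower, their shares were 19.0% (14.1 to 25.2%), 23.6%, 33.9%, 27.9% and 34.2% (27.9 to 41.1%). The AP-1 counts of the classes can also be read by motif, which is the same comparison and no separate result. A siNS/siNS GBR with an AP-1 match was also called in siCHD9/siHic5 in 81.6% of cases (77.8 to 84.9%, 457 GBR). For those without it the share was 62.4% (60.3 to 64.4%, 2125 GBR), and the median −log10 p-values were 21.1 and 21.2. In the siCHD9/siHic5 list, 57.6% (53.9 to 61.3%) of GBR with an AP-1 match and 73.6% (71.5 to 75.6%) of GBR without it were also called in siNS/siNS, at medians of 20.7 and 20.7.

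**Figure D5:**
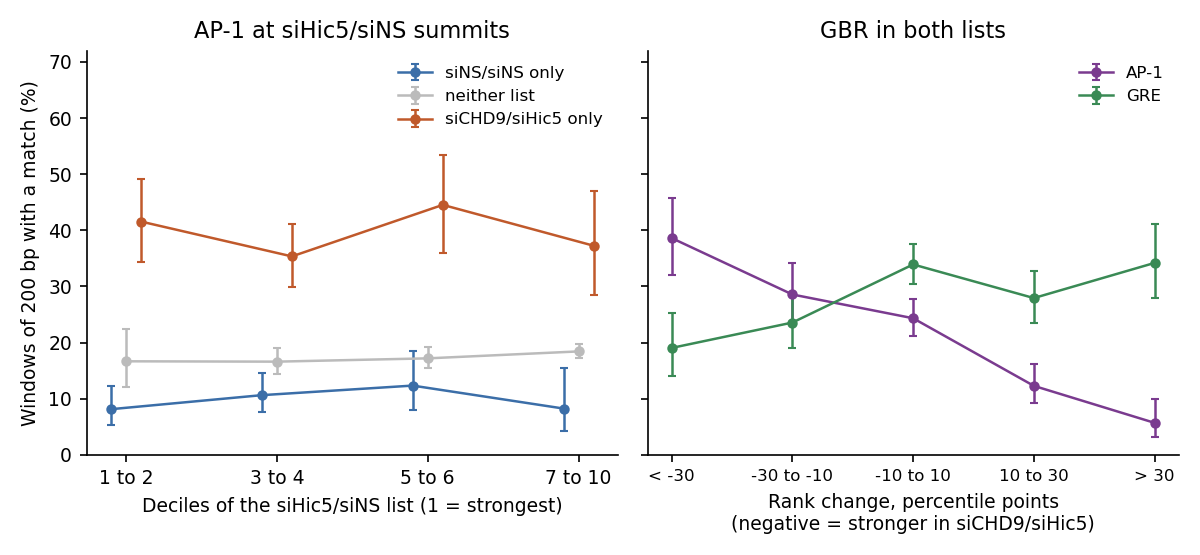
Left, share of 200-bp windows at siHic5/siNS summits with an AP-1 match (vertical axis, %) by deciles of the siHic5/siNS list, for GBR also called in siNS/siNS only, siCHD9/siHic5 only or neither list. Right, share of shared GBR with an AP-1 or GRE match by rank change in percentile points, where negative values rank higher in siCHD9/siHic5. Bars are 95% Wilson intervals. The siCHD9/siHic5 only line stays above the siNS/siNS only line on the left, and on the right AP-1 falls from 38.6% to 5.70%.

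Among GBR in the strongest 20% of either list, those near FOXD4L6 and PTPN1 were among the largest falls in rank. The GBR near FOXD4L6 (chr9:40922621-40923766) went from rank 504 in siNS/siNS to 2413 in siCHD9/siHic5, and that near PTPN1, the gene of a tyrosine phosphatase, from 501 to 2375 (chr20:50442921-50443361). Among the largest gains were GBR in an intron of MGLL, the gene of monoglyceride lipase (chr3:127889426-127889770, 2549 to 170), and near MLLT3, which encodes a reader of acylated histones (chr9:20297674-20298045, 2439 to 240). These GBR were called in both lists and their changes rest on a single pooled value each. The GBR near PTPN1 held a GRE match. Those near FOXD4L6 and MLLT3 and in the MGLL intron held neither an exact GRE nor an AP-1 match. With 1 mismatch allowed, those near MLLT3 and in the MGLL intron held a GRE and that near FOXD4L6 did not.

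Location in the genome differed between the classes in introns but not detectably at promoters. A summit within 1 kb of a protein-coding TSS was found for 33 GBR (3.73%, 2.67 to 5.20%) of siNS/siNS only, 4.42% of shared GBR and 30 GBR (3.98%, 2.80 to 5.62%) of siCHD9/siHic5 only, a difference of −0.25 points (−2.20 to 1.63). Introns held 44.8% of siNS/siNS only, 40.8% of shared and 37.4% of siCHD9/siHic5 only, a difference of siNS/siNS only minus siCHD9/siHic5 only of 7.40 points (2.61 to 12.1). Intergenic GBR made up 51.0%, 53.9% and 56.4%, a difference of −5.35 points (−10.2 to −0.50). A TSS lay within 100 kb of 68.4% (65.3 to 71.4%) of siNS/siNS only and 63.0% (59.5 to 66.4%) of siCHD9/siHic5 only, a difference of 5.44 points (0.84 to 10.04). GC content at the summits was 50.02% (SD 9.44 over GBR), 51.0% (SD 9.10) and 49.4% (SD 9.48). By nearest TSS, the GBR of siNS/siNS only were assigned to 769 genes and those of siCHD9/siHic5 only to 644, and 108 genes were in both, 14.0% of the former and 16.8% of the latter.

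The other depletions, set against the same siNS/siNS list and so not independent of this comparison, gave the following values. The share of siNS/siNS GBR that was also called was 96.8% (96.1 to 97.4%) in siHic5/siNS and 83.4% (81.9 to 84.8%) in siBRM/siHic5, 65.8% in siCHD9/siHic5, 48.6% (46.7 to 50.5%) in siCHD9/siNS and 47.8% (45.9 to 49.7%) in siBRM/siNS. This order is also that of the list lengths. At equal length, the 1000 strongest siNS/siNS GBR were found among the 1000 strongest of siCHD9/siHic5 in 68.1% of cases (65.1 to 70.9%), of siHic5/siNS in 72.7% (69.9 to 75.4%), of siCHD9/siNS in 73.4% (70.6 to 76.0%), of siBRM/siHic5 in 74.9% (72.1 to 77.5%) and of siBRM/siNS in 81.6% (79.1 to 83.9%), so that the siCHD9/siHic5 share was the lowest of these 5, with an interval that overlapped those of siHic5/siNS and siCHD9/siNS. AP-1 matches at GBR absent from siNS/siNS were found at 27.5% (25.05 to 30.0%) of 1242 in siBRM/siHic5, 19.8% (18.8 to 20.7%) of 7059 in siHic5/siNS and 36.7% (29.6 to 44.5%) of 158 in siCHD9/siNS, beside the 37.5% in siCHD9/siHic5. These sets share regions. Of the 754 GBR called only in siCHD9/siHic5, 135 were called in siCHD9/siNS, 410 in siBRM/siHic5 and 674 in siHic5/siNS. The 36.7% and 37.5%, and the GRE shares of these 2 lists below, thus rest in large part on the same regions. Over whole lists the AP-1 share was 17.7% (16.3 to 19.2%) in siNS/siNS, 19.4% in siHic5/siNS, 18.1% in siBRM/siNS and 22.4% (21.1 to 23.9%) in siBRM/siHic5. It was 25.2% (22.97 to 27.5%) in siCHD9/siNS and 27.3% (25.5 to 29.1%) in siCHD9/siHic5, the 2 lists made after CHD9 depletion. The intervals of siBRM/siHic5 and siCHD9/siNS overlapped. GRE matches were found at 27.7% of siNS/siNS GBR, 24.3% of siCHD9/siHic5 GBR, 23.9% of siBRM/siHic5 GBR, 17.6% of siHic5/siNS GBR, 27.6% of siCHD9/siNS GBR and 32.4% of siBRM/siNS GBR. At GBR absent from siNS/siNS they were found at 14.0% in siHic5/siNS, 15.7% in siBRM/siHic5 and 13.3% in siCHD9/siNS, beside the 13.1% in siCHD9/siHic5, so that the low GRE share was not particular to siCHD9/siHic5. In siBRM/siNS, 40 GBR were absent from siNS/siNS, and 35.0% (22.1 to 50.5%) of them held a GRE match and 17.5% (8.75 to 31.95%) an AP-1 match. Among siNS/siNS GBR absent from another list, AP-1 matches were found at 8.54% of 82 for siHic5/siNS and 10.7% of 429 for siBRM/siHic5. The shares were 12.5% of 1327 for siCHD9/siNS and 17.8% of 1348 for siBRM/siNS, beside 9.50% of 884 for siCHD9/siHic5. ETS shares, in the same order, were 0%, 4.66%, 6.33%, 7.34% and 4.64%. The low AP-1 and ETS shares at GBR called only in siNS/siNS were thus not particular to siCHD9/siHic5.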

How the data were processed

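GR ChIP-seq libraries came from U2OS-GRα cells, 2 replicates per siRNA combination and 1 input each. Alignment by the authors was to GRCh38/hg38 with BWA, on trimmed reads, and their filtering left nuclear, nonduplicate reads. They called peaks with MACS2 on pooled replicates and applied the IDR framework, for which versions and thresholds are not given in the sources used here. The deposited lists give the −log10 of each peak's p-value and q-value and a signal value by the authors, described in the peak format as fold enrichment and elsewhere as an average of normalized counts, and used here only to rank within a list. Depth is not in the lists, but it bears on −log10 p-values and on which weak peaks are called. Medians and minima of lists are set side by side without adjustment for depth, and no difference in height is drawn from them.

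All peaks lay within GRCh38 sequences. Overlap of at least 1 bp defined the classes. Shares have Wilson and differences of shares Newcombe intervals at 95% confidence, for counting error only. GBR of 1 genome are not independent replicates, so no p-values are given. Strength was the −log10 p-value rank within a list. Motifs were exact patterns on both strands of 200-bp windows at summits, with windows 5 kb away as background. TSS were those of canonical protein-coding transcripts of GENCODE release 44, and named GBR carry the nearest one. GBR were named as the 5 strongest of each list only, the 3 with the best mean rank, and the 3 with the largest fall and gain in rank within the strongest 20% of a list. Some of the GBR and genes that these rules name are not reported here. The classes, motifs and gene lists were chosen with earlier results of these data known. The counting was tested on simulated peaks and planted motifs. Python 3.11.15, NumPy 2.4.6, SciPy 1.17.1, pandas 2.3.3, pysam 0.24.0, samtools 1.23.1, bedtools 2.31.1 and Matplotlib 3.10.9 were used. Alternatives were other overlap rules, thresholds, strength measures, windows and patterns. Other assays of the study were not analysed here.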

Additional observations from a re-analysis of the deposited data

How the results depend on the processing

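Of 58 combinations of a result with an alternative setting, 43 left the value within the 95% interval of the main setting. This count includes settings that could hardly move a value. Merging overlapping peaks of a list changed nothing, because no list held overlapping peaks. Restriction to chromosomes 1 to 22 and X removed only 2 siNS/siNS peaks and 1 siCHD9/siHic5 peak. The share of siCHD9/siHic5 only GBR called in siHic5/siNS moved most. It was 76.9% with 50% overlap of both peaks, 86.3% with summits within 200 bp, 91.8% with a common q-value cutoff, 95.7% with a −log10 q-value of at least 20 and 38.1% with the 1000 strongest peaks of each list, where the siHic5/siNS list was itself cut to 1000. The share of siNS/siNS GBR called in siCHD9/siHic5 was 61.5% with the common cutoff, which removed only siCHD9/siHic5 peaks from the pair, and 68.1% with the 1000 strongest, and the share of siCHD9/siHic5 GBR called in siNS/siNS was 72.6% with the common cutoff. In the strongest 10% of GBR these shares were 96.9% with 50% overlap for siNS/siNS, and 100% for siCHD9/siHic5 with the common cutoff, the −log10 q-value of at least 20 and the 1000 strongest. The AP-1 difference was −32.1 points in 1-kb windows and, in settings chosen after seeing the data, −32.4 with the pattern TGANTCA and −33.4 among GBR with a −log10 p-value of 20 or more. Among the latter the ETS difference was −3.37 points with an interval of −9.12 to 1.64, and the GRE difference 8.47 points (0.12 to 16.3). The promoter difference, whose interval includes 0, ranged from −1.83 to 0.08 points and turned positive with the common cutoff. The AP-1, GRE and ETS differences kept their sign in the settings tried.

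No paired analysis was possible because each list was made from pooled replicates, and for the same reason leaving out a replicate was not possible. Replicate spread and depth therefore limit every share of weak GBR.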

Other observations

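The gene with the most GBR of 1 list only on both sides was PTPN1, chosen after its values were seen. In a stretch of 167 kb on chromosome 20 (chr20:50395255-50561999), 14 GBR had its TSS as the nearest, of which 6 were shared, 3 were called in siNS/siNS only and 5 in siCHD9/siHic5 only. The shared GBR ranked 19 to 501 in siNS/siNS, those of siNS/siNS only 919 to 2389, and those of siCHD9/siHic5 only 933 to 2120 in their list. Of the 5 GBR of siCHD9/siHic5 only, 2 held an AP-1 match and 1 a GRE match, and of the 3 of siNS/siNS only 0 held either. The GBR of siCHD9/siHic5 only included one 0.27 kb upstream of the TSS.

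By chromosome, the share of siNS/siNS GBR also called in siCHD9/siHic5 ranged from 48.3% (31.4 to 65.6%) of 29 on chromosome 21 to 77.6% (65.3 to 86.4%) of 58 on chromosome 19. The interval left out the 65.8% of the whole list on chromosome 21 and on chromosome 18 (51.0%, 37.7 to 64.1%, 51 GBR).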
